A study of Mus musculus with 10 samples.

Results

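The collagen genes form the family described here: 44 of the 21939 genes in the deposited count table carry a symbol, looked up from the Ensembl identifier, that reads Col, a type number, the letter a and a chain number. RNA was sequenced from hepatocytes of male mice, 12 days after they received AAV8Cre, a viral vector with Cre recombinase under the thyroxine-binding globulin promoter, which is active in hepatocytes. The age of the mice is given as 8 to 9 weeks. The virus was given to all groups, so that the control mice (C57BL/6J, 3 libraries) carried it too. The Nrf2 KO mice had Nrf2 flox/flox alleles (2 libraries), the p65 KO mice had p65 flox/flox alleles (2 libraries) and the DKO mice were Nrf2:p65 double floxed (3 libraries), all on the control background. The cells were released by perfusing the liver with Liberase and enriched by centrifugation at low speed and then in Percoll. RNA was made into Illumina TruSeq stranded mRNA libraries, and the authors deposited an estimated count for each gene in each library. The total count per library lay between 33707165 and 49897382, of which between 754 and 1142 CPM (counts per 1e6 counts of the library) fell on collagen genes.

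Collagens are matrix proteins built from 3 chains that wind into a triple helix, and each gene encodes 1 type of chain. Fibrillar collagens form the banded fibrils of connective tissue, type IV forms the sheet of basement membranes, type VI forms beaded filaments close to cells, and the fibril-associated collagens with interrupted helices (FACIT) bind to the surface of fibrils. Multiplexins lie in and near basement membranes, transmembrane collagens span the cell membrane, and the remaining types include those of hexagonal nets and anchoring fibrils. In the liver, stellate cells and portal fibroblasts are known as the main makers of fibrillar collagen, sinusoidal endothelial cells also make type IV collagen, and hepatocytes are a known source of collagen XVIII. Nrf2, encoded by Nfe2l2, activates antioxidant genes, and p65, encoded by Rela, is a subunit of the inflammatory transcription factor NF-κB.

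Levels are given as normalized counts, that is, counts divided by a library size corrected with the trimmed mean of M-values (TMM). A gene was tested if its counts over the 10 libraries added up to 10 or more, which 13641 genes reached. A gene was called higher or lower where edgeR's quasi-likelihood test gave a Benjamini-Hochberg adjusted p of 0.05 or less and the fitted log2 fold change, here called log2 difference and given with its standard error (SE), was 1 or more in size. A gene with no more than 3 counts in each library of a group is said to be at the floor there, which corresponds to between 0.0601 and 0.0890 CPM, depending on the library. Intervals and floors cover counting error only.

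The labelled cell type was checked with 12 hepatocyte markers, such as Alb, the most abundant of them. Their summed level was 4343030, 3785660 and 5277160 normalized counts in the control libraries, 4500310 and 4282130 in p65 KO, 5151490 and 5907770 in Nrf2 KO, and 4797140, 4946760 and 4807360 in DKO. The p65 KO libraries lay inside the control range. Between p65 KO and control 0 of the 12 were called, by edgeR, DESeq2 or limma, and 5 had an unadjusted p under 0.05. Tat was called higher in DKO than in control, and in DKO against p65 KO Tat was called higher and Cyp2e1 lower. Of all genes tested, edgeR called 6.59% in p65 KO against control, 2.38% in DKO against control and 1.78% in DKO against p65 KO. Of the targeted genes, Nfe2l2 had a higher total in Nrf2 KO (4872 normalized counts) than in control (2099.8), as it had in DKO (4261). Rela did not differ detectably from control (1256) in p65 KO (1196) or DKO (1255). The table gives a single total for each gene, so the genotypes are those of the labels. In the paper, RT-qPCR and Western blots of hepatocytes from such mice showed the loss of Nrf2 and p65.

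Most collagen genes were at or near the floor in these cells. Of the 44 members, 10 had no count in any library, namely Col2a1, Col4a6, Col6a4, Col6a5, Col8a2, Col9a1, Col10a1, Col19a1, Col26a1 and Col28a1. Another 6 had between 1 and 9 counts in all (Col4a4, Col8a1, Col9a2, Col11a1, Col17a1 and Col22a1), so that 28 members were tested and 16 were not. At the floor were 23 members in control and 21 in Nrf2 KO, against 16 in p65 KO and 18 in DKO, and 16 members were at the floor in every group. Members with at least 1 count numbered 34 in p65 KO, 30 in DKO, and 28 in both control and Nrf2 KO. By class, 9 of 11 fibrillar, 4 of 6 type IV, 4 of 6 type VI, 5 of 9 FACIT, both multiplexin, 3 of 4 transmembrane, 1 of 3 anchoring or other, and none of the 3 network-forming type VIII and X genes were tested. Because a gene can reach 10 counts through the group where it is high, as Col24a1 did with 5 and 3 of its 11 counts in p65 KO, the counts over tested members are descriptions.

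Col18a1, the gene for the basement membrane collagen whose end piece is endostatin, dominated the family. It took between 85.0% and 92.5% of the summed normalized counts of the family in every library, and Col5a3, a chain of the regulatory fibrillar collagen V, took between 1.29% and 7.38%. Per kilobase of the canonical transcript, the control level was 5011 ± 310.5 normalized counts (SD, n = 3) for Col18a1, 263 ± 24.4 for Col5a3 and 154 ± 32.9 for Col27a1, a short-fibril collagen best known from cartilage. Below them came Col15a1, the other multiplexin, with 62.4 ± 19.5 per kilobase. The paired basement membrane chains Col4a2 (31.9 ± 3.54) and Col4a1 (31.2 ± 2.42) did not differ beyond their spread, and neither did Col4a5 (11.3 ± 3.40), a chain of the specialised basement membrane network, and the FACIT gene Col20a1 (8.92 ± 2.40). The fibrillar chains best known from fibrosis were far lower per kilobase in control, with 3.08 ± 3.39 for Col3a1 and 1.097 ± 0.723 for Col1a2, and no count at all for Col1a1. In p65 KO the level per kilobase was 26.1 ± 1.28 (SD, n = 2) for Col3a1, 14.6 ± 2.48 for Col1a2 and 6.47 ± 1.26 for Col1a1, still under the 359 ± 151 of Col5a3.

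The comparison of p65 KO with control asks what loss of p65 in hepatocytes does to collagen transcripts in this cell preparation. Of the 44 members, 7 were called higher and 1 lower, among 28 tested, while 5.05% of all genes tested were called higher, 1.54% lower and 6.59% in either direction. The higher genes were Col1a1, Col1a2 and Col5a1 of the fibrillar class, Col6a1 and Col6a2 of type VI, and Col14a1 and Col16a1 of the FACIT class, and the lower gene was the multiplexin Col15a1. An unadjusted p under 0.05 was found for 17 members. The median fitted log2 difference of the tested members was 1.91, and 1.40 with the 3 genes at 0 in control set to the bound that the floor allows, beside 0.00 over all genes tested in both ways. The libraries of p65 KO and control did not overlap for 19 of the 28 tested members and for 50.01% of all genes tested. Scaling to library totals instead of TMM shifted the median of genes with a mean of 50 or more normalized counts by 0.177 on the log2 scale in this comparison.

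Col1a1 and Col1a2 encode the chains of collagen I, the main fibril protein of scar tissue. Col1a1 had no count in the 3 control libraries, 43.7 and 33.1 normalized counts in p65 KO, 0.989 and 3.23 in Nrf2 KO, and 4.21, 4.49 and 0 in DKO. Both p65 KO libraries lay above all 8 others, and the mean of p65 KO was at least 12.7-fold higher than the floor of 3 counts per library in control (adjusted p = 0.00743). Col1a2 had 4.42, 2.95 and 10.3 normalized counts in control, 69.1 and 87.9 in p65 KO, 6.92 and 2.42 in Nrf2 KO, and 12.6, 20.2 and 4.58 in DKO. Again the p65 KO libraries were the highest by a clear margin, with a log2 difference to control of 3.70 (SE 0.68, adjusted p = 0.0074). Col1a2 was the 1 collagen call of this comparison that held without any single library.

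Col5a1 encodes the chain of collagen V that helps to start collagen I fibrils. It had 1.104, 0.983 and 10.3 normalized counts in control, 32.5 and 104.9 in p65 KO, 13.8 and 0 in Nrf2 KO, and 11.6, 40.4 and 33.2 in DKO. The log2 difference in p65 KO was 3.98 (SE 1.14, adjusted p = 0.0401), with a wide gap between the 2 p65 KO libraries. Col3a1, the chain of collagen III, was picked out after its values were seen because it accompanies collagen I in fibrils. Its levels were 0, 37.4 and 14.0 normalized counts in control, 140.2 and 150.3 in p65 KO, 10.9 and 4.04 in Nrf2 KO, and 27.4, 68.4 and 10.3 in DKO. The p65 KO libraries lay above all others, while the control libraries were uneven, and edgeR did not call Col3a1 (log2 difference 3.06, SE 0.95, adjusted p = 0.0538). It was called higher by limma with either pseudocount, without a filter, with only the genotypes compared, and without control replicate 2 or DKO replicate 2 or 3, but not by DESeq2. Col5a2, a further chain of collagen V, had 24.4 and 28.4 normalized counts in p65 KO and between 1.87 and 4.92 in control. For Col5a2 edgeR gave no call either (log2 difference 3.08, SE 1.08, adjusted p = 0.0779). DESeq2 called it higher, as did limma with a pseudocount of 10 and the fits with only the genotypes compared or without DKO replicate 2 or 3.

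The abundant fibrillar genes behaved differently. Col5a3 had 1779, 1619 and 1477 normalized counts in control, 2877 and 1558 in p65 KO, 1375 and 1183 in Nrf2 KO, and 488, 1649 and 1252 in DKO. Of its p65 KO libraries 1 was above the control range and 1 within it, and edgeR did not call it in any comparison. Col27a1 had 1188, 1410.1 and 911 normalized counts in control, 799.5 and 661 in p65 KO, 942 and 801 in Nrf2 KO, and 972, 1024 and 1128 in DKO. Both p65 KO libraries were below all control libraries, but with a log2 difference of -0.68 (SE 0.18, adjusted p = 0.0302) the difference was smaller than the size required for a call. Over the class, the median log2 difference of the 9 tested fibrillar genes was 3.08 in p65 KO, and 3.06 with the genes at 0 in control at their bound. The summed level of Col1a1, Col1a2 and Col3a1 was 23.0 ± 18.0 normalized counts in the 3 control libraries (± SD) and 262 ± 12.9 in the 2 of p65 KO, a ratio of 11.4. Without control replicate 2, the highest control library, the ratio was 18.3, and it lay between 8.11 and 18.3 with any 1 library of the 2 groups left out, an alternative chosen after seeing the data. The sum of the whole fibrillar class, carried by Col5a3 and Col27a1, was 2839 ± 347 and 3322 ± 974, a ratio of 1.17 (from 0.927 to 1.41 without 1 library).

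Type VI collagen is assembled from the products of Col6a1, Col6a2 and a further chain such as that of Col6a3. Col6a1 had 3.31, 2.95 and 3.74 normalized counts in control, 44.7 and 31.2 in p65 KO, 3.95 and 1.62 in Nrf2 KO, and 0, 15.7 and 8.01 in DKO. The control libraries were close together and the p65 KO libraries far above them, with a log2 difference of 3.46 (SE 0.97, adjusted p = 0.0374). Col6a2 was at the floor in control with 5 counts in all, against 43 in the 2 p65 KO libraries, a ratio of 12.6 after scaling with a 95% counting interval from 5.003 to 40.8 (adjusted p = 0.0410). Col6a3 showed 21.3 and 17.0 normalized counts in p65 KO and between 0.983 and 6.54 in control, and was not called (log2 difference 2.65, SE 1.07, adjusted p = 0.118). Col6a6, a chain encoded elsewhere in the genome, was at 11.2 and 15.1 normalized counts in p65 KO and between 6.63 and 12.8 in control, so that the groups overlapped. The class median was 3.06 over 4 tested genes, and the sum of Col6a1, Col6a2 and Col6a3 was 7.80 ± 4.63 in control and 78.1 ± 10.2 in p65 KO, a ratio of 10.02. It was 15.1 without control replicate 3, and between 8.23 and 15.1 with any 1 library of the 2 groups left out, also chosen after seeing the data. The sum of the whole type VI class was 17.4 ± 5.80 in control and 91.3 ± 7.43 in p65 KO, a ratio of 5.25 (from 4.44 to 6.14 without 1 library).

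Among the FACIT genes, Col14a1, whose product decorates fibrils and limits their thickness, had the highest counts in p65 KO. It had 12.1, 19.7 and 55.1 normalized counts in control, 301.7 and 278.8 in p65 KO, 25.7 and 23.4 in Nrf2 KO, and 19.99, 125.7 and 44.6 in DKO. The 2 p65 KO libraries were alike and higher than the rest, and Col14a1 rose with a log2 difference of 3.30 (SE 0.67, adjusted p = 0.0114). Col16a1, another fibril-associated gene, had 1 count in all 3 control libraries together and 34 in p65 KO, a ratio of 49.8 with a counting interval from 8.36 to 2025 (adjusted p = 0.0275). Col16a1 was not high in p65 KO alone, since the Nrf2 KO libraries had 3 and 22 counts. Col20a1 was at 81.3 and 20.8 normalized counts in p65 KO, on either side of the control range of 30.8 to 51.9, and Col12a1 and Col9a3 were not called. The class median was 2.43 over 5 tested genes.

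Of the basement membrane genes, edgeR called 0 of 4 tested type IV genes in p65 KO, beside 6.59% of all genes tested. Of these genes, 2 had an unadjusted p under 0.05, and DESeq2 and limma, fitted to the same counts, called 0 as well. Col4a1 had 203.2, 192.7 and 224.1 normalized counts in control, 482.6 and 291.1 in p65 KO, 299.6 and 218.2 in Nrf2 KO, and 168.3, 136.9 and 123.6 in DKO. Both p65 KO libraries were above control, with a log2 difference of 0.90 (SE 0.23, adjusted p = 0.0271), just under the size required, and it was called with scaling to library totals and without p65 KO replicate 2. Col4a2, its partner in the collagen IV heterotrimer, had 218.7, 237.0 and 189.6 in control and 372.8 and 240.1 in p65 KO (log2 difference 0.51, SE 0.40, adjusted p = 0.412). Col4a5 did not separate the groups, with between 50.8 and 95.3 normalized counts in control and 106.7 and 77.5 in p65 KO. Col4a3 was singled out after its values were seen because 2 libraries of different genotypes held nearly all of its counts, with 19 in p65 KO replicate 1 and 38 in DKO replicate 2, at most 2 in any other library and none in control. The class median was 0.71.

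Neither of the 2 multiplexins was called higher in p65 KO. Col15a1, whose product links basement membrane to the fibrils beneath it, had 410.8, 437.6 and 230.7 normalized counts in control, 158.5 and 108.7 in p65 KO, 266.9 and 321.7 in Nrf2 KO, and 581.7, 257.0 and 415.4 in DKO. The p65 KO libraries were the lowest of all 10, and Col15a1 fell by 1.43 on the log2 scale (SE 0.36, adjusted p = 0.0268). Col18a1 had 26061.5, 28716 and 29330 normalized counts in control, 33139.5 and 25254.5 in p65 KO, 38648 and 36296 in Nrf2 KO, and 35025, 38742 and 33693 in DKO. The p65 KO libraries fell on both sides of the control range (log2 difference 0.06, SE 0.14, adjusted p = 0.809). Among the transmembrane genes, 0 of 3 tested were called (2 had an unadjusted p under 0.05; DESeq2 called 0, limma 0 with a pseudocount of 1 and 1 with a pseudocount of 10) and the median was 1.77, with Col13a1 at 1.06 and Col25a1 at 1.77. Col7a1, the gene of anchoring fibrils, was at -0.24 (SE 0.64).

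The p65 KO calls rest on few libraries. Without p65 KO replicate 1, where p65 KO is a single library assumed to vary like the others, 1 collagen was called instead of 8, and Col1a1 (adjusted p = 0.0506) and Col14a1 (adjusted p = 0.0657) lost their calls. The number was 4 without p65 KO replicate 2, 3 without control replicate 1, 4 without control replicate 2 and 5 without control replicate 3. Col5a1, Col6a1, Col6a2, Col15a1 and Col16a1 each lost the call when either p65 KO library or control replicate 1 or 2 was left out, and Col6a1, Col6a2 and Col16a1 also without control replicate 3, with adjusted p of at most 0.223. Without DKO replicate 2 or 3 the number was 10, and over the other tools and settings it ran from 4 to 12.

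**Figure D1:**
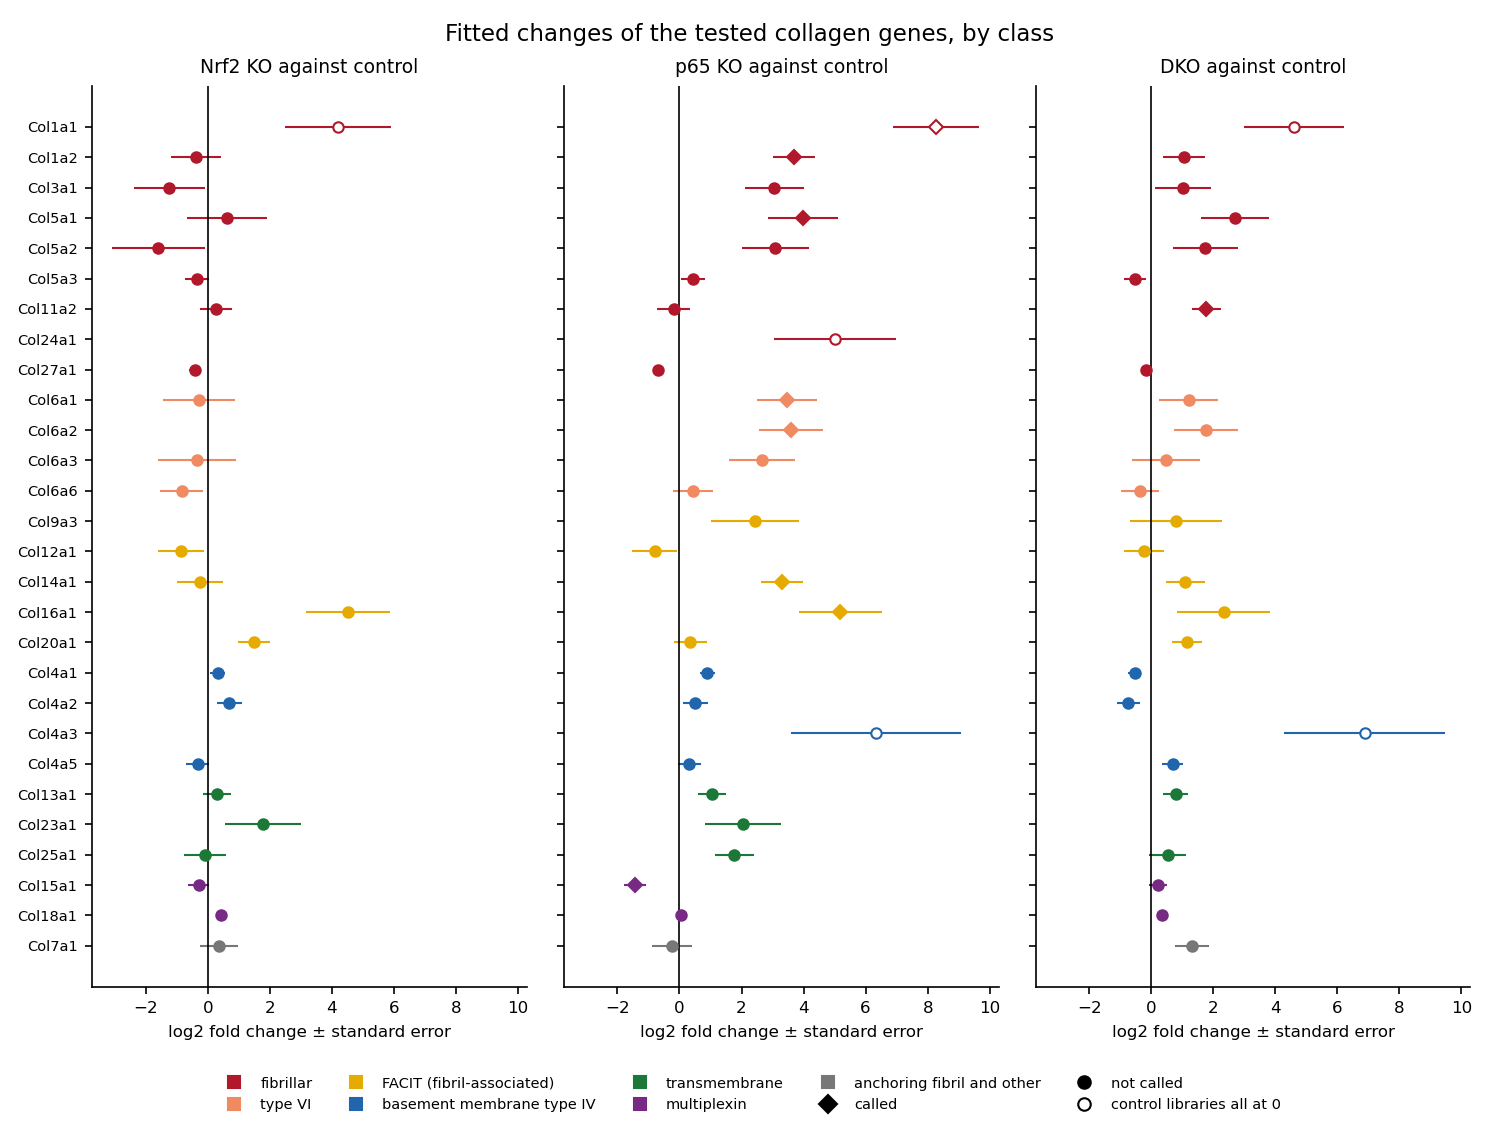
Fitted log2 difference with its standard error (horizontal axis) for the 28 tested collagen genes (vertical axis, coloured by class) in each knockout against control; diamonds are called genes, open symbols have no count in any control library, and genes at the floor in both groups are not drawn. In p65 KO the 7 genes called higher are fibrillar, type VI and FACIT genes, while Col15a1 lies at -1.43 and Col18a1 at 0.06; fitted values of the open symbols depend on the prior count of the fit.

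Fewer collagens were called between DKO and control than between p65 KO and control. In DKO, 1 of the 28 tested members was called, against 2.38% of all genes tested, and 8 had an unadjusted p under 0.05. The median log2 difference was 0.91, or 0.79 with 2 genes at their bound and 2 left out that were at the floor in both groups, beside 0.02 over all genes tested. The libraries did not overlap for 5 of the 28 members and for 26.5% of all genes tested. The called gene was Col11a2, a minor fibrillar chain best known from cartilage, with 14.4, 10.8 and 18.7 normalized counts in control, 18.3 and 7.56 in p65 KO, 15.8 and 19.4 in Nrf2 KO, and 49.4, 34.8 and 67.5 in DKO. All 3 DKO libraries were above all others, and the log2 difference was 1.78 (SE 0.46, adjusted p = 0.0497). That adjusted p sat at the threshold, and the call ended without any of the 3 control, 2 Nrf2 KO or 3 DKO libraries (highest adjusted p = 0.147) and in 4 of 10 other settings, so that the number ran from 0 to 2. Without DKO replicate 1 another gene, Col4a2, was called lower instead.

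The genes that rose in p65 KO were at intermediate levels in DKO. Col1a2 had a mean of 12.5 ± 7.81 normalized counts (SD, n = 3) in DKO against 5.88 ± 3.87 in control (adjusted p = 0.374), and Col14a1 had 63.4 ± 55.3 against 29.0 ± 22.9 (adjusted p = 0.327). DKO replicate 2 was the highest of its group for Col1a2, Col3a1, Col5a1, Col6a1, Col6a2 and Col14a1, and DKO replicates 1 and 3 reached into the control range for several of them. Col5a1, with 11.6, 40.4 and 33.2 normalized counts, was above all control libraries in DKO and was not called (log2 difference 2.70, SE 1.09, adjusted p = 0.173). Col18a1 was above control in all 3 DKO libraries with a log2 difference of 0.35 (SE 0.13, adjusted p = 0.128).

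Comparing DKO with p65 KO asks what loss of Nrf2 adds to loss of p65, and it shares its p65 KO and DKO libraries with the comparisons above. Of the 28 tested members, 1 was called higher and 2 lower, beside 1.78% of all genes tested in either direction, and 13 had an unadjusted p under 0.05. Col4a1 fell by 1.43 on the log2 scale from p65 KO to DKO (SE 0.23, adjusted p = 0.0117), with every DKO library also below every control library. Its partner Col4a2, with 219.9, 103.2 and 61.8 normalized counts in DKO, had a log2 difference of -1.25 (SE 0.41, adjusted p = 0.111), which was called by DESeq2, with scaling to library totals and without DKO replicate 1. Col1a2 fell by 2.64 (SE 0.65, adjusted p = 0.0471) and Col15a1 rose by 1.65 (SE 0.37, adjusted p = 0.0352). The Col4a1 call ended only without p65 KO replicate 1 among the single libraries (adjusted p = 0.0924). That of Col15a1 ended without either Nrf2 KO or p65 KO library or DKO replicate 1 or 3 (highest adjusted p = 0.178), and that of Col1a2 held only without control replicate 3 or DKO replicate 2 (highest adjusted p = 0.186). The number called was 0 without p65 KO replicate 1, 1 without p65 KO replicate 2, either Nrf2 KO library or DKO replicate 3, and 4 without DKO replicate 2, and from 0 to 7 over the other tools and settings, with 0 when the fit held only these 2 genotypes. The median over the tested members was -1.26, beside 0.00 over all genes tested, -1.44 over the stellate, -1.21 over the Kupffer and -0.89 over the sinusoidal endothelial markers described below.

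The comparison of Nrf2 KO with control gave no called collagen by edgeR, and none by DESeq2 or limma, beside 0.550% of all genes tested. Of the tested members, 5 had an unadjusted p under 0.05, the libraries did not overlap for 9 of 28 (28.5% of all genes tested), and the median log2 difference was -0.04, or -0.17 with 1 gene at its bound and 4 at the floor in both groups left out. Col18a1 was higher in both Nrf2 KO libraries than in the 3 control libraries, with a log2 difference of 0.42 (SE 0.14, adjusted p = 0.317). Col20a1, with 118.6 and 106.7 normalized counts in Nrf2 KO and 51.9, 37.4 and 30.8 in control, differed by 1.49 (SE 0.51, adjusted p = 0.342). Col27a1 had a log2 difference of -0.42 (SE 0.18, adjusted p = 0.478). Col16a1 had 25 counts in Nrf2 KO against 1 in control, a ratio of 33.3 with a counting interval from 5.45 to 1366, but 22 of them came from Nrf2 KO replicate 2.

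Between DKO and Nrf2 KO no collagen was called by edgeR, beside 0.433% of all genes tested, although 6 members had an unadjusted p under 0.05 and DESeq2 called 1, Col4a2, lower; limma called none. Without DKO replicate 1, Col4a2 was called lower. The log2 difference of Col4a2 was -1.43 (SE 0.40, adjusted p = 0.158) and that of Col4a1 was -0.85 (SE 0.24, adjusted p = 0.149), and for both genes every DKO library was below both Nrf2 KO libraries. The interaction, defined as the DKO minus p65 KO difference less the Nrf2 KO minus control difference, asks whether loss of Nrf2 acts differently when p65 is also lost. It gave 0 called collagens by edgeR, beside 0.455% of all genes tested, with 7 at an unadjusted p under 0.05. DESeq2 called 4 (Col1a1, Col4a1 and Col4a2 negative, Col15a1 positive), limma with a pseudocount of 10 called 1 and limma with a pseudocount of 1 none. Col4a1 was the nearest in edgeR, with an interaction of -1.76 (SE 0.33, adjusted p = 0.0520), and it was called with scaling to library totals and without a filter. Without DKO replicate 1 Col4a2 was called lower, and without DKO replicate 2 Col15a1 was called higher. Col4a2 had -1.94 (SE 0.57, adjusted p = 0.188) and Col15a1 had 1.93 (SE 0.50, adjusted p = 0.136).

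**Figure D2:**
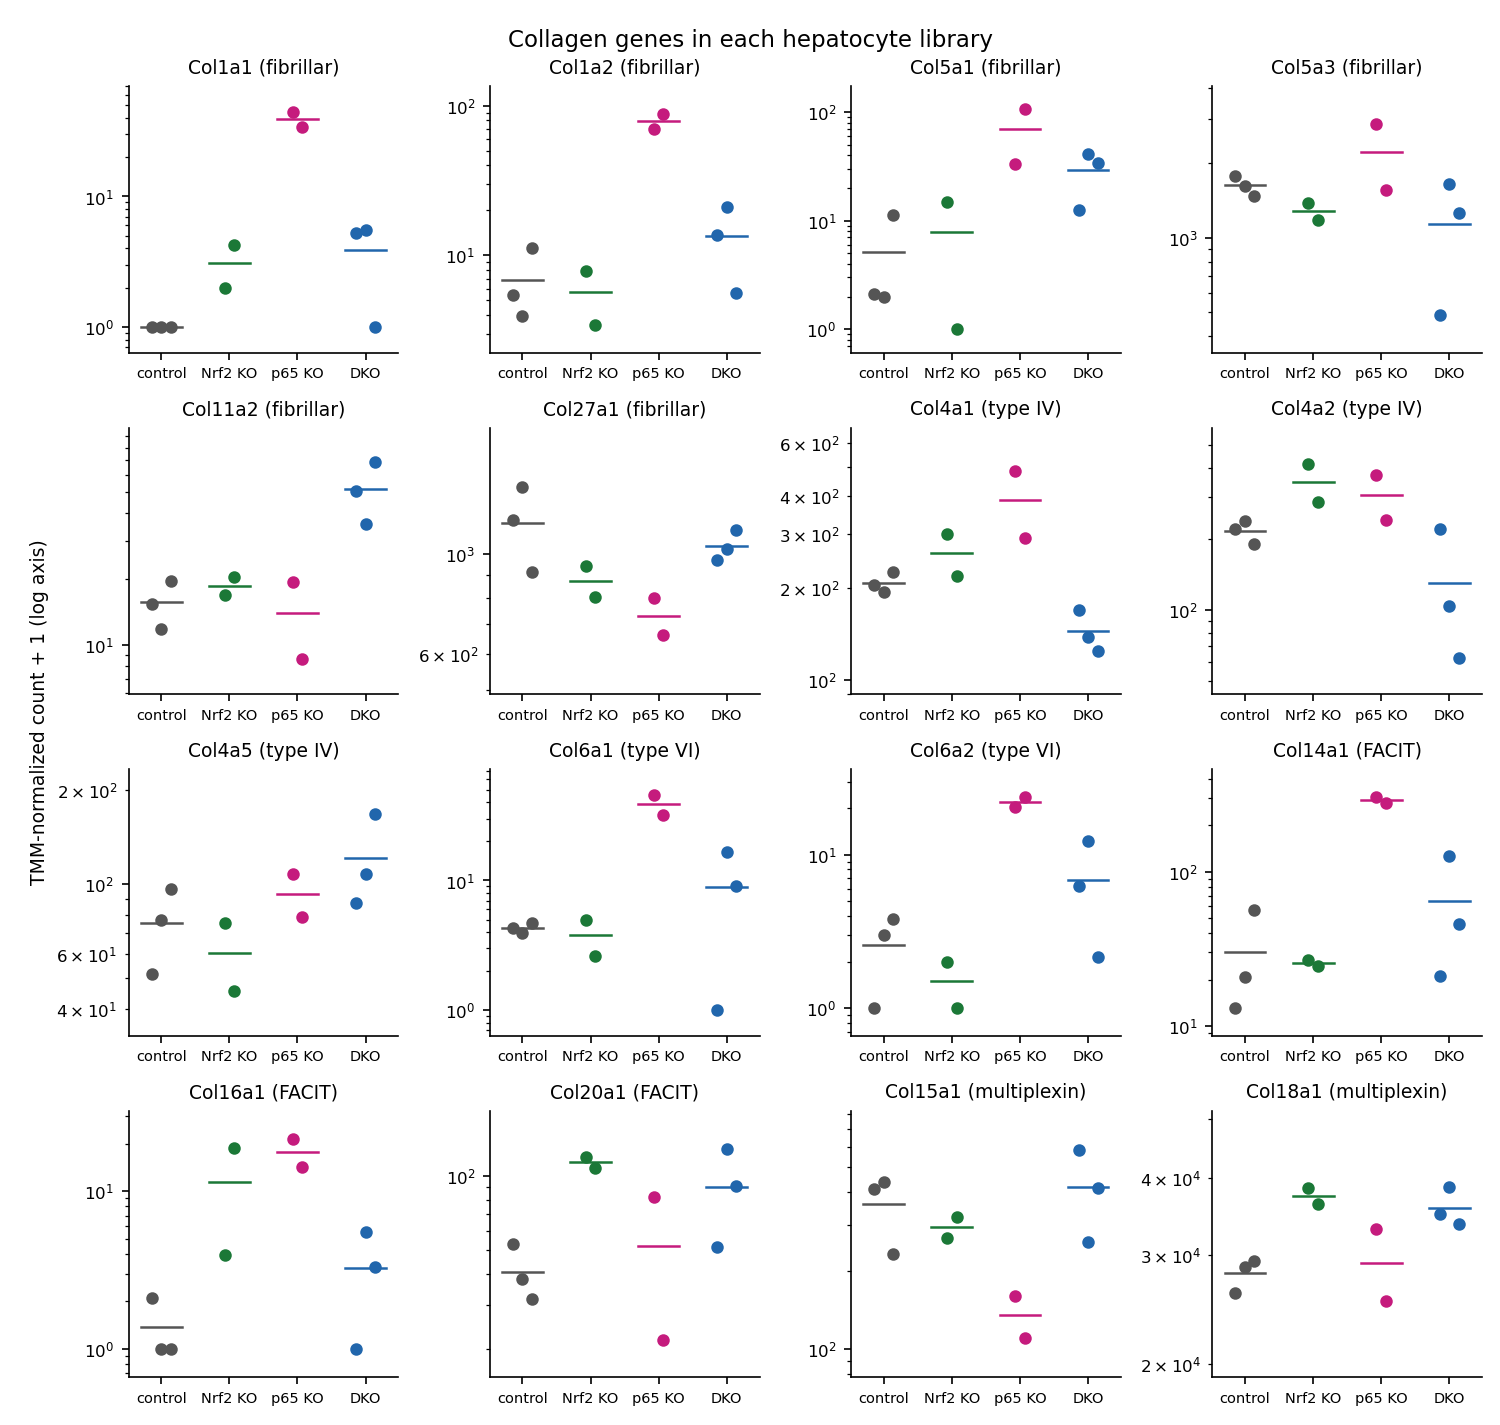
TMM-normalized count plus 1 (vertical log axis, scaled for each panel) of the 16 collagen genes that average 50 normalized counts or more or are called in any comparison, for each library (points) of the 4 genotypes (horizontal axis), with group means as lines. The p65 KO libraries stand above the rest for Col1a1, Col1a2, Col6a1, Col6a2 and Col14a1 and below the rest for Col15a1, and the DKO libraries stand above the rest for Col11a2 and below the rest for Col4a1.

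Markers of some other liver cells moved in the same libraries, and their part in the collagen results was not tested. Of 12 stellate cell markers, 9 were called higher in p65 KO, beside 5.05% of all genes tested. The markers had a median log2 difference of 2.85, beside 0.00 over all genes tested. Their summed level was 254, 234 and 439 normalized counts in control, 2095 and 1812 in p65 KO, 384 and 184 in Nrf2 KO, and 432, 1063 and 477 in DKO, and the most abundant of them was Ecm1, a matrix protein that the list of matrix proteins also holds. As for Col1a2, Col3a1 and Col14a1, p65 KO was highest and DKO replicate 2 led its group. The sum of the sinusoidal endothelial markers below had the same pattern, while in that of the Kupffer markers DKO replicate 1 led its group. The stellate markers with the largest changes among those of sufficient mean level were Colec11 (3.16), Ecm1 (2.94), Rgs5 (2.76) and Reln (1.92). In bulk RNA, more cells of a type and more RNA per cell cannot be told apart. The summed counts of Col1a1, Col1a2 and Col3a1 came to 12.1 and 15.0 per 100 stellate marker counts in the p65 KO libraries. They came to 1.74, 17.2 and 5.53 in control, 4.90 and 5.26 in Nrf2 KO, and 10.2, 8.76 and 3.12 in DKO. The p65 KO ratios lay above all of Nrf2 KO and DKO but within the control range. That range is wide, since control replicate 1 had 4 counts of Col1a2 and none of Col1a1 or Col3a1, so lying within it decides little.

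Several markers of portal fibroblasts, smooth muscle and mesothelial cells were at 0. Of 12 portal fibroblast markers, Dpt, Mfap4 and Clec3b had no count in any library, 6 were tested, and 1, Gsn, was called higher in p65 KO (from a mean of 1.26 to 30.7 normalized counts), beside 5.05% of all genes tested. The median log2 difference of the 6 tested markers was 2.51, with 5 of the 6 above 0. The sum of the list, carried by Entpd2, was 116, 99.3 and 112 normalized counts in control, 197 and 131 in p65 KO, 144 and 124 in Nrf2 KO, and 101, 132 and 101 in DKO, and it hides the rarer genes. Among 8 markers of vascular smooth muscle and myofibroblasts, 0 of 5 tested were called in p65 KO (0 by DESeq2 or limma, 1 with an unadjusted p under 0.05), beside 6.59% of all genes tested. Of these markers, Acta2 had 7 counts over all libraries, and Cnn1 and Actg2 had none. Their sum was carried by Mylk and lay between 1876 and 2019 normalized counts in control, at 2277 and 1941 in p65 KO, at 1842 and 1452 in Nrf2 KO, and between 1948 and 2204 in DKO. Of 5 mesothelial markers none could be tested, and Msln, Upk3b and Wt1 were at 0 everywhere, with at most 3.31 normalized counts for the list in any library.

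All 12 sinusoidal endothelial markers were called higher in p65 KO, beside 5.05% of all genes tested. The markers had a median log2 difference of 1.86, and Ptprb was the most abundant. Their sum was 864, 1698 and 1929 normalized counts in control, 6306 and 4659 in p65 KO, 2353 and 1181 in Nrf2 KO, and 3019, 3694 and 2371 in DKO. Largest among the abundant ones were Lyve1 (2.66), Eng (2.29), Gpr182 (2.19) and Cdh5 (2.01). Col4a1 and Col4a2 together came to 48.8, 25.3 and 21.5 per 100 endothelial marker counts in control and to 13.6 and 11.4 in p65 KO, and Col15a1 to 47.6, 25.8 and 12.0 in control and to 2.51 and 2.33 in p65 KO. Every control library had higher values of both ratios than either p65 KO library. The ratio of Col4a1 and Col4a2 was 30.3 and 42.5 in Nrf2 KO and 12.9, 6.50 and 7.82 in DKO, where no library exceeded the p65 KO range. That of Col15a1 was 11.3 and 27.2 in Nrf2 KO and 19.3, 6.96 and 17.5 in DKO, where every library was above p65 KO. What lies behind these ratios was not tested.

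All 10 Kupffer cell markers were also called higher in p65 KO (median 2.87, most abundant Cd5l), beside 5.05% of all genes tested. The marker sums were 347, 904 and 693 normalized counts in control, 5841 and 4313 in p65 KO, 765 and 243 in Nrf2 KO, and 2779, 1918 and 1575 in DKO. The largest abundant ones were Marco (3.62), Cd5l (3.32), C1qc (3.15) and Adgre1 (3.09). In DKO, 0 stellate (8 with an unadjusted p under 0.05; 3 called by DESeq2, 1 and 0 by limma with pseudocounts of 1 and 10), 2 endothelial and 5 Kupffer markers were called higher than in control. Over all genes tested, edgeR called 2.38% in either direction in that comparison. Against p65 KO, 0 of 12 stellate markers (8 with an unadjusted p under 0.05; 4 called by DESeq2, 1 and 3 by limma with pseudocounts of 1 and 10), 0 of 12 endothelial markers (7 with an unadjusted p under 0.05; 2 called by DESeq2, 0 by limma) and 1 of 10 Kupffer markers (9 with an unadjusted p under 0.05) were called in DKO, the Kupffer one lower. There edgeR called 1.78% of all genes tested in either direction.

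**Figure D3:**
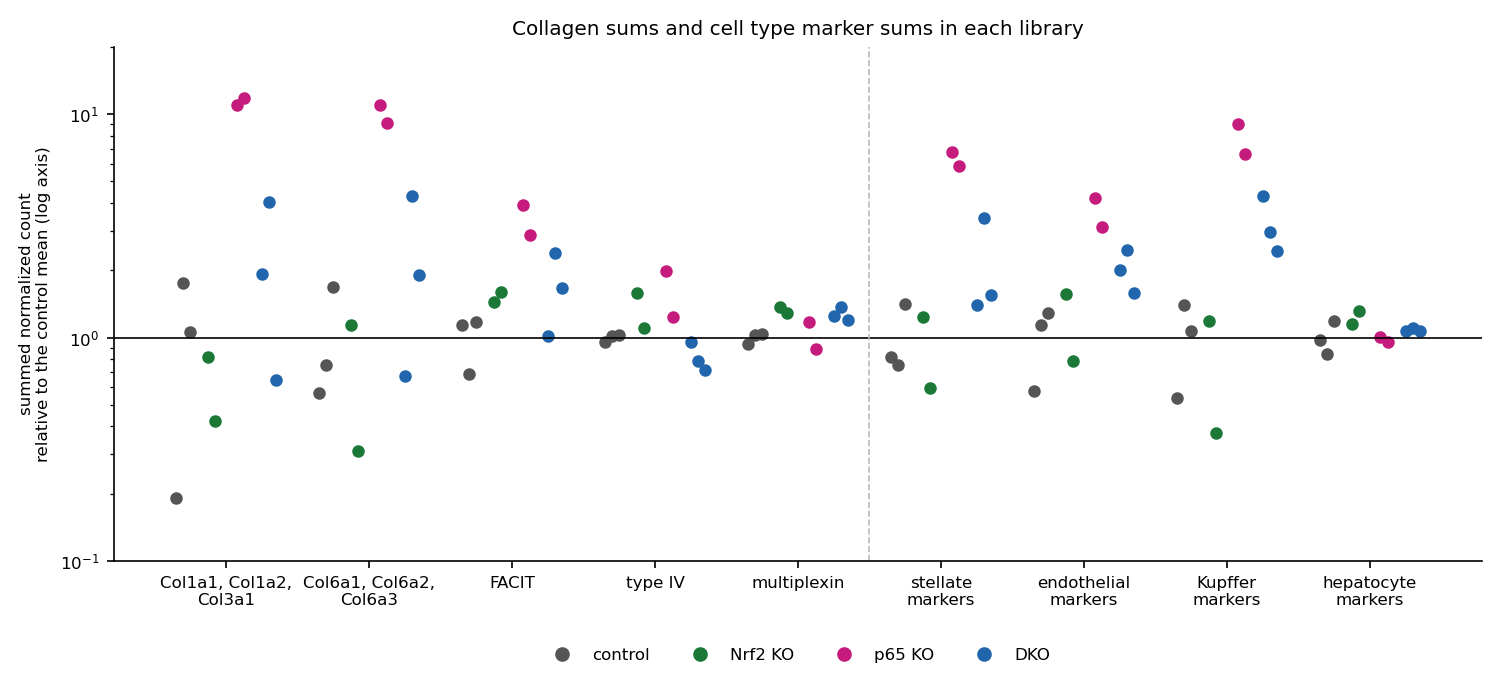
Summed normalized counts of collagen groups and of marker lists in each library, divided by the mean of the 3 control libraries (vertical log axis), with 1 point per library coloured by genotype. The p65 KO libraries are highest for the sums of Col1a1, Col1a2 and Col3a1 (mean ratio 11.4, or 18.3 without control replicate 2), of Col6a1, Col6a2 and Col6a3 (10.02, or 15.1 without control replicate 3) and of the stellate (6.32) and Kupffer (7.84) markers, and lie near 1 for the multiplexins (1.03) and hepatocyte markers (0.983). The multiplexin sum is carried by Col18a1, while Col15a1, the other multiplexin, was called lower in p65 KO.

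Genes that handle collagen after translation were also counted, and the called genes of these short lists are named whatever their level. Of 19 genes for modification and folding in the endoplasmic reticulum, 17 were tested and 1 was called in p65 KO, beside 6.59% of all genes tested, which is the share to set beside the lists that follow too: Serpinh1, the collagen chaperone, with 11.04, 10.8 and 15.9 normalized counts in control and 45.7 and 65.2 in p65 KO (log2 difference 2.13, SE 0.49, adjusted p = 0.0178). The list median was -0.02, beside 0.00 over all genes tested, and its sum, carried by P4hb, was 56339 ± 8091 in control and 54758 ± 3200 in p65 KO. Of 17 genes for secretion, propeptide cleavage and cross-linking, 14 were tested, and in p65 KO the cross-linking enzyme Loxl2 rose (5.14 to 32.2 in mean) while its relative Loxl4 fell by 2.97 on the log2 scale (143.6 to 18.3). The median of the list was 0.71, or 0.39 with genes at 0 in a group at their bound. In DKO against control, edgeR called only Pcolce of that list, an enhancer of propeptide cleavage (log2 difference 1.23), beside 2.38% of all genes tested. DESeq2 called 2 of the list there, and limma 1 and 0 with pseudocounts of 1 and 10. Of 18 genes for degradation and its inhibitors, 12 were tested and 3 were called higher in p65 KO, namely the elastase Mmp12 and the protease inhibitors Timp2 (3.15) and Timp3 (2.79), and both inhibitors were also called in DKO (2.42 and 1.91). Their list had a median of 1.66 in p65 KO, and 0.56 with 2 genes at their bound and 1 at the floor in both groups left out. Of 10 collagen receptor genes, 8 were tested and 2 called higher in p65 KO, the inhibitory receptor gene Lair1 and Cd44 (3.39), with a list median of 0.69, or 0.97 without the 1 gene at the floor in both groups.

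The matrix proteins that associate with collagen had the most calls of these lists. Of 22, 20 were tested, and 9 were called higher and 1 lower in p65 KO, with a median of 2.37, or 1.92 with genes at 0 in control at their bound. Dcn and Bgn, small proteoglycans that bind collagen fibrils, rose by 3.63 and 3.12 on the log2 scale, Ecm1 rose by 2.94 and Emilin1, an elastic fibre protein, by 2.12. Dcn had 50.8, 46.2 and 107.4 normalized counts in control, 807.7 and 890.3 in p65 KO, 95.9 and 54.2 in Nrf2 KO, and 135.7, 357.9 and 168.2 in DKO. Like Col14a1, it was highest in p65 KO and, within DKO, in replicate 2. The gene called lower was Nid2, a basement membrane linker, which fell by 1.22 (SE 0.22, adjusted p = 0.0072). Between DKO and p65 KO, edgeR called Dcn, Bgn, Sparc and Lamb1 lower (Dcn fell by 1.94), beside 1.78% of all genes tested in either direction. In DKO against control, edgeR called Dcn alone of this list (1.68), beside 2.38% of all genes tested. DESeq2 called 5 of the list in each comparison. With pseudocounts of 1 and 10, limma called 3 and 5 against p65 KO, and 2 and 1 against control.

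The naming rule reads symbols and no sequence, but it picks genes named as collagens. The glycine repeat belongs to what defines these proteins, so its presence in the members is a description and not a separate finding. The triple helix needs glycine at each 3rd residue, and glycine is encoded by GGN codons, so the longest run of codon triplets opening with GGN was counted in the coding sequence of each canonical transcript. All 44 members had a run of at least 20 triplets, against 20 of 21879 other genes (0.0914%). Those 20 include Marco and C1qb of the Kupffer list and Colec11 of the stellate list, which are soluble or membrane proteins with a collagen-like stalk. The longest run spanned between 216 and 344 triplets (median 338) in fibrillar genes, 32 to 113 (57) in FACIT genes, 37 to 87 (45) in type VI, 39 to 66 (43.5) in type IV and 30 in both multiplexins. Inner coding exons of exactly 54 bases, the length of 6 such triplets, were counted by length alone, whatever their codons. They made up 305 of 625 (48.8%) in fibrillar genes, 109 of 414 (26.3%) in FACIT genes, 17 of 202 (8.42%) in type VI, 12 of 284 (4.23%) in type IV and 4 of 77 (5.20%) in multiplexins, against 0.430% of the inner coding exons of other genes.

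To show this repeat in fibrillar genes that were called in p65 KO and in abundant ones that were not, the first inner coding exon of 54 bases with GGN at each 3rd codon is printed for 5 of them, on the coding strand, with those GGN codons in capitals. Col1a1 exon 8 lies at chr11:94830730-94830783, Col1a2 exon 8 at chr6:4515481-4515534 and Col5a1 exon 15 at chr2:27855263-27855316, all on the plus strand. Col5a3 exon 15 lies at chr9:20712364-20712417 on the minus strand and Col27a1 exon 4 at chr4:63150029-63150082 on the plus strand (GRCm39). Each holds 6 marked codons at the same spacing.
Col1a1: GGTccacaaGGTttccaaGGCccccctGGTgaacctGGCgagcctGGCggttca
Col1a2: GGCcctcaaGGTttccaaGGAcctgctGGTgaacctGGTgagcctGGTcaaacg
Col5a1: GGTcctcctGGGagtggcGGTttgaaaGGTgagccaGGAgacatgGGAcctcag
Col5a3: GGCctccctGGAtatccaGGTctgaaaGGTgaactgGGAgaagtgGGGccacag
Col27a1: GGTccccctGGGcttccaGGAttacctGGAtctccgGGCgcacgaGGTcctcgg

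The members lie on 15 chromosomes, and 9 pairs are within 300000 bases of each other. The type IV genes are paired head to head: Col4a1 (chr8:11248423-11362826) and Col4a2 (chr8:11362471-11499287) overlap at their starts, as do Col4a4 (chr1:82426144-82564800) and Col4a3 (chr1:82564642-82699780), and Col4a6 and Col4a5 are 1281 bases apart on chromosome X. How reads of the overlapping ends were assigned to the genes was not checked, so the counts of these pairs depend on the strand setting of the quantification. Levels followed the pairs only in part. Col4a1 came to between 72.7 and 200 counts per 100 counts of Col4a2 in the 10 libraries, whereas Col4a6 had no count beside Col4a5, and Col4a4 had 6 counts in all beside 62 of Col4a3. Col3a1 and Col5a2 stand tail to tail, 16713 bases apart, on chromosome 1. Col6a2 (chr10:76429660-76459549) and Col6a1 (chr10:76543440-76562283) share a strand 83890 bases apart, and both were called in p65 KO, whereas Col6a4 and Col6a5, next to Col6a6 on chromosome 9, had no count.

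The 200 bases before the start of the canonical transcript were searched on both strands for 5 short motifs, in the 44 members and in 21923 genes in all. CCAAT was found in 29.5% of the members (32.0% of all windows), TATAAA in 15.9% (9.82%), GGGCGG in 47.7% (34.4%), TGACNNNGC, the core of the antioxidant response element, in 6.82% (8.18%), and GGGNNNNNCC, a loose core of the NF-κB consensus, in 52.3% (43.4%). Matches to different motifs can overlap. A match describes letters in a window and is not evidence that a factor binds there. The windows of Col14a1 (chr15:55170940-55171139), which rose in p65 KO, and of Col15a1 (chr4:47207382-47207581), which fell, are printed as examples that do not stand for the other members, on the coding strand, plus for both, with all matches in capitals. They overlap no annotated exon. Col14a1 holds 1 CCAAT and 1 TATAAA match next to each other on the minus strand and 3 GGGCGG matches (2 plus, 1 minus), and Col15a1 holds 1 CCAAT match on the plus strand. Neither holds a GGGNNNNNCC match. The window of Col1a1, also called higher in p65 KO and not printed, holds such matches on the plus (2) and minus (1) strands.
Col14a1: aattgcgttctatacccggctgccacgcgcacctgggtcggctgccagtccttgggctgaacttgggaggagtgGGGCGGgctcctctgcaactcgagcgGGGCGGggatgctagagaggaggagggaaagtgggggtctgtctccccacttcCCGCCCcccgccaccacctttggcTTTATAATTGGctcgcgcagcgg
Col15a1: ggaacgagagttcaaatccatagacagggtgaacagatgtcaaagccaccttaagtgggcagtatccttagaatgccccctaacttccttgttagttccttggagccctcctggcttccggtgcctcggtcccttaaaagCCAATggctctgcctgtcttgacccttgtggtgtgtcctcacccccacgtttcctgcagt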

How the data were processed

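The authors quantified single-end reads of the TruSeq stranded mRNA libraries with Salmon 1.10.3 on GRCm39 transcripts of GENCODE M33 and deposited expected counts per gene as whole numbers. The table is named as normalized, but its library totals differ, so it was used as estimated counts. Counts were fitted with edgeR 4.0.16 (R 4.3.3) in 1 model of the 4 genotypes, with TMM scaling, a filter of 10 summed counts and Benjamini-Hochberg adjustment over all genes tested. Alternatives were DESeq2 1.42.0, limma 3.58.1 with pseudocounts of 1 and 10, other filters and scalings, a block for replicate number, fits of just the genotypes at hand, and fits without each library in turn. Described singly were collagens that average 50 normalized counts or more or are called. Values of other members, such as Col6a3, Col6a6, Col7a1, Col13a1 and Col25a1, were also given within their classes. From the long lists, up to 4 called genes that average 50 normalized counts or more, with the largest change in p65 KO, were named. Members and lists were chosen with earlier results of these data known, so no list was given a p-value. Gene positions, exons and sequences came from GENCODE M39 and the GRCm39 genome. Figures were drawn with matplotlib 3.10.9.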

Additional observations from a re-analysis of the deposited data

How the results depend on the processing

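No collagen changed direction in a called comparison under any alternative. Of 117 values of called collagens under other settings, 104 kept their call and 13 lost it, and of 120 values without 1 library, 72 kept it and 48 lost it. For p65 KO against control, 8 collagens were called, 5 with a filter on a mean of 10 counts, and without 1 library between 1 and 10. For DKO against control, 1 was called, 2 with DESeq2, 0 with scaling to library totals, 0 with scaling by the median of ratios, 0 with only the genotypes compared, and without 1 library between 0 and 1. For DKO against p65 KO, 3 were called, 7 with DESeq2, 5 and 7 with limma (pseudocounts of 1 and 10), 5 without a filter, 6 with scaling to library totals, 0 with only the genotypes compared, and without 1 library between 0 and 4. For DKO against Nrf2 KO, 0 were called, 1 with DESeq2, and without 1 library between 0 and 1. For the interaction, 0 were called, 4 with DESeq2, 1 with limma (pseudocount of 10), 1 without a filter, 1 with scaling to library totals, and without 1 library between 0 and 1. Nrf2 KO against control gave 0 under every alternative run.

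Over all genes, Nrf2 KO against control gave 75 calls, 135 with DESeq2, and without 1 library between 18 and 84. For p65 KO against control the 899 calls became between 325 and 954 without 1 library. For DKO against control there were 325, 534 with DESeq2, 215 with only the genotypes compared, and without 1 library between 147 and 316. For DKO against p65 KO there were 243, 453 with DESeq2, 365 with limma (pseudocount of 10), 504 with scaling to library totals, 105 with only the genotypes compared, and without 1 library between 70 and 294. For DKO against Nrf2 KO there were 59, 296 with DESeq2, 112 without a filter, 18 with only the genotypes compared, and without 1 library between 18 and 81. For the interaction there were 62, 249 with DESeq2, 137 without a filter, 118 with scaling to library totals, and without 1 library between 8 and 119. The cause of these differences was not tested.

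With the replicate number as a block, 4 collagens were called in p65 KO, 0 in DKO, 2 in DKO against p65 KO and 0 in the interaction, and 37 genes in all between DKO and Nrf2 KO. The labels give the samples only a number. Of 13 pairs of libraries with the same number, 1 had a correlation of residuals over 0.1 (range -0.232 to 0.113). Residuals were taken from the genotype mean, so those of a genotype with 2 libraries mirror each other. These correlations therefore cannot show whether a number marks a shared batch. The interaction needs all 4 genotypes and so has no value with only those compared. Genes under the filter on the mean have no value there. With 2 or 3 libraries per genotype, outlying libraries were not tested for.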
